A study of Arabidopsis thaliana with 4 samples.

Results

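The 52 genes described here are the arabinogalactan protein genes (AGP, 30 genes) and the early nodulin-like genes (ENODL, 22 genes) of Arabidopsis thaliana, out of 27444 nuclear protein-coding genes. Every nuclear protein-coding gene whose symbol is AGP or ENODL plus a number was taken, and its gene body and 1 kb on either side, called its window below, were searched for peaks. The families were chosen from peaks of these same lists that were already known, so their counts are descriptions and are not evidence that the families stand apart. The peaks come from chromatin isolation by RNA purification with sequencing (ChIRP-seq), in which biotinylated DNA probes complementary to an RNA pull down the chromatin close to it. Here the probes targeted the long noncoding RNA APOLO. ODD (2 libraries, ODD 1 and ODD 2) and EVEN (1 library, EVEN 1) were made with separate probe sets against APOLO, and LACZ (1 library, LACZ 1) with control probes. All 4 libraries, the control included, came from Col-0 plants that carry full-length APOLO in the vector pB7WG2 under the 35S promoter, which is active in most plant cells, so recovery was measured with APOLO overexpressed. Plants grew at 23 °C in 16 h light and 8 h dark on solid medium, and tissue and age are not stated in the labels.

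Arabinogalactan proteins are cell surface proteins whose backbones, rich in hydroxyproline, alanine, serine and threonine, carry large arabinogalactan sugar chains, and many are held at the plasma membrane by a lipid anchor. Classical members have a long backbone of this kind, AG peptides a very short one, lysine-rich members a lysine-rich stretch inside it, and non-classical members such as AGP30 and AGP31 a cysteine-rich domain beside it. Early nodulin-like proteins join a short stretch of the same kind to a plastocyanin-like domain that has lost the residues needed to bind copper.

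ODD 1 listed 16126 nuclear peaks, ODD 2 58146, EVEN 1 20470 and LACZ 1 12546, all with a q-value of at most 0.05. The lowest local background of a list, which moves with depth, was 1.11 fragments for ODD 1, 6.55 for ODD 2, 2.81 for EVEN 1 and 6.23 for LACZ 1. A fold is the authors' enrichment of the fragments at a summit over the local background used in peak calling. Whether that background came from the same library or from a control is not stated. Folds are used here only to describe and rank peaks within a list. EVEN and LACZ have 1 library each and a list gives no value where it has no peak, so no test across libraries was possible. The labels do not say whether the 2 ODD libraries came from separate plants.

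All 52 genes had a peak in ODD 2, 33 had one in ODD 1, 39 in EVEN 1 and 13 with the control probes. In ODD 1, 20 of 30 AGP genes (66.7%, 95% exact binomial interval 47.2 to 82.7) and 13 of 22 ENODL genes (59.1%, 36.4 to 79.3) had a peak, beside 48.9% of all nuclear protein-coding genes. ODD 2 had a peak at 30 of 30 and 22 of 22, beside 92.8% of all genes, so this list separates few genes from the rest. With either ODD library the counts were the same, beside 93.0%. EVEN 1 had a peak at 22 of 30 AGP genes (73.3%, 54.1 to 87.7) and 17 of 22 ENODL genes (77.3%, 54.6 to 92.2), beside 55.3%. LACZ 1 had one at 8 of 30 (26.7%, 12.3 to 45.9) and 5 of 22 (22.7%, 7.82 to 45.4), beside 41.3%. The shares of both families were above that of all genes in the 3 lists of APOLO probes and below it in the control list. In every list the interval of each family held the share of all genes, so these counts do not set either family apart from it. The intervals of AGP and ENODL also overlapped in every list, and they cover counting error only.

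The windows of these genes are short, at 2427 to 3948 bp, with a median of 2968 bp beside 4078 bp for all nuclear protein-coding genes. Among the 12527 genes with windows no longer than 3948 bp, 39.6% had a peak in ODD 1, 87.5% in ODD 2 (87.8% in either ODD library), 48.8% in EVEN 1 and 34.5% in LACZ 1. The AGP intervals lay above these shares in ODD 1, ODD 2 (88.4 to 100) and EVEN 1, and the ENODL interval in EVEN 1 alone. In LACZ 1 the intervals of both families held the share. Per kb of window, the 52 genes held 0.275 ODD 1, 0.659 ODD 2, 0.326 EVEN 1 and 0.0959 LACZ 1 peaks. The densities over all genes were 0.156, 0.574, 0.194 and 0.117 peaks per kb in the same order of libraries. The families differed from each other in ODD 1, at 0.316 peaks per kb for AGP and 0.221 for ENODL genes, more than in EVEN 1, at 0.305 and 0.354. That difference was not tested.

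**Figure D1:**
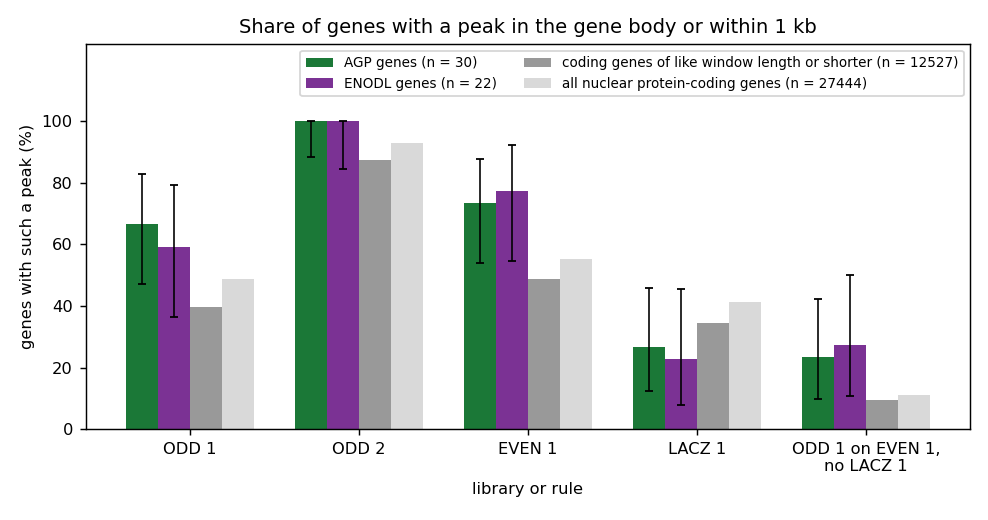
Percent of genes (y axis) with a peak in the gene body or within 1 kb, for each library and for an ODD 1 peak that overlaps an EVEN 1 peak and no LACZ 1 peak (x axis); bars are AGP genes, ENODL genes, genes with windows no longer than 3948 bp and all nuclear protein-coding genes, and lines on the AGP and ENODL bars are 95% exact binomial intervals. Both families lie above both backgrounds in ODD 1, ODD 2 and EVEN 1 and below both in LACZ 1, and every interval holds the share of all genes. The share of genes with windows no longer than 3948 bp lies below the AGP intervals for ODD 1, ODD 2, EVEN 1 and the overlap rule. It lies below the ENODL intervals for EVEN 1 and that rule.

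A region recovered with both probe sets was counted where an ODD 1 peak shared at least 1 bp with an EVEN 1 peak and touched no LACZ 1 peak. Such regions lay in the windows of 13 genes. They were 7 of 30 AGP genes (23.3%, exact interval 9.93 to 42.3), namely AGP2, AGP3, AGP5, AGP6, AGP22, AGP27 and AGP31, and 6 of 22 ENODL genes (27.3%, 10.7 to 50.2), namely ENODL1, ENODL7, ENODL10, ENODL11, ENODL12 and ENODL20. The share over all genes was 11.1%, and 9.44% among genes with windows no longer than 3948 bp. With the control list left out of the rule, 17 of the 52 genes (32.7%) held an ODD 1 peak on an EVEN 1 peak, beside 13.5% of all genes and 11.9% of those with such windows. The count rests on weak peaks: at −log10 q of at least 5 in every list it was 1 AGP gene, AGP5, and 0 ENODL genes, beside 2.98% of all genes. With ODD 2 in place of ODD 1 it was 15 AGP and 14 ENODL genes, beside 31.9% of all genes, and these included the 7 and 6 named above.

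Of those 13 genes, 9 held the region in their own body, 5 AGP and 4 ENODL genes (17.3%, beside 7.42% of all genes and 5.81% of genes with windows no longer than 3948 bp). At the other 4 the region lay inside a neighbouring gene. The AGP6 region was in AT5G14390, the AGP27 region in NHX4, a sodium/proton antiporter gene, the ENODL7 region in TED3, a gene of peroxisome formation, and the ENODL10 region in APO2, which encodes a chloroplast protein. The ODD 1 peaks at AGP27, ENODL10 and AGP6 began 945, 955 and 963 bp from the gene, just inside the 1 kb limit. At AGP27 the summits of the ODD 1 and EVEN 1 peaks lay outside that limit. With the summit required inside the window, 6 AGP genes, without AGP27, and 6 ENODL genes were left, beside 10.7% of all genes. Beyond the 1 kb limit, the nearest region of this kind was 1931 bp from ENODL14, where ODD 1 was enriched 8.69-fold.

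**Figure D2:**
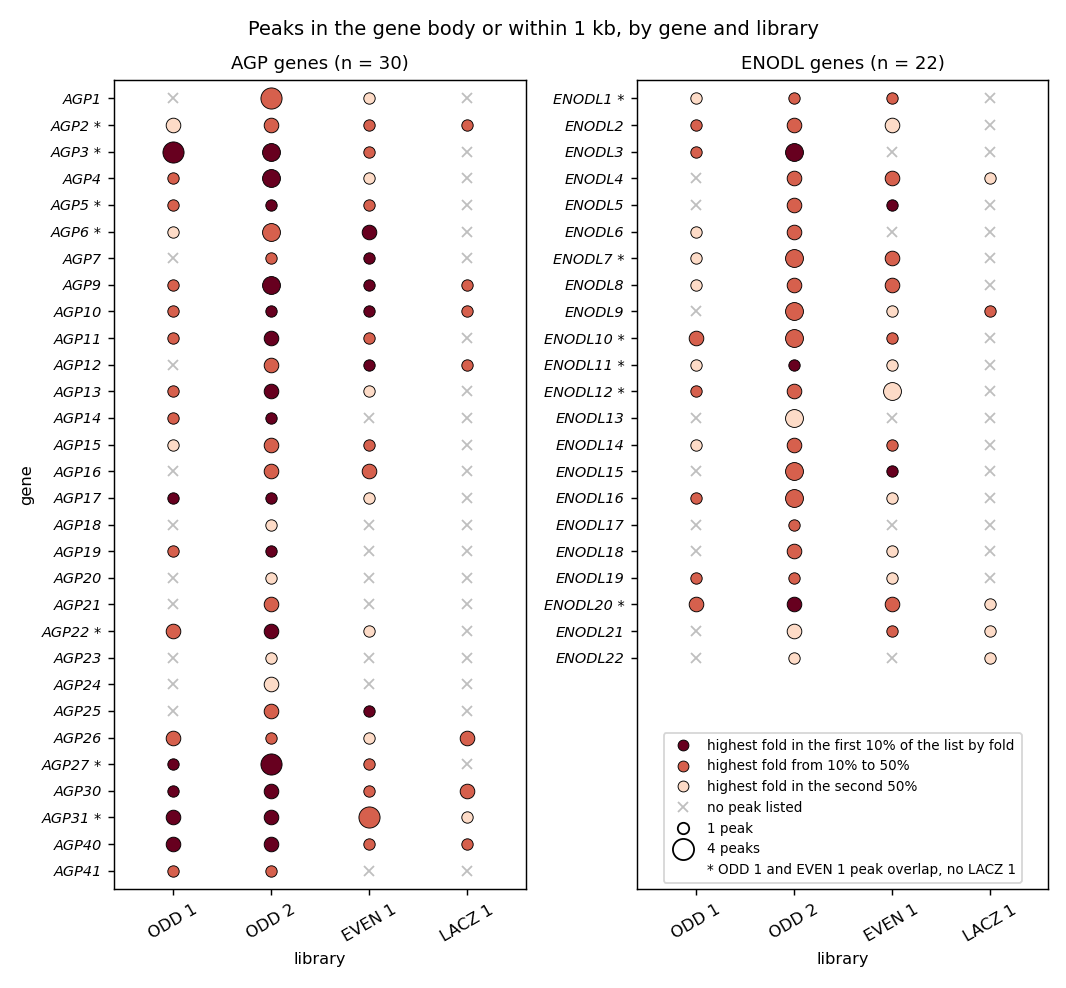
Each gene (y axis) in each library (x axis), with AGP genes left and ENODL genes right; a filled circle is a gene with at least 1 peak in its window, its size the number of peaks and its colour the place of the highest fold in the list of that library, a cross is a gene with no peak listed, and stars mark the 7 AGP and 6 ENODL genes with a region of both probe sets. The ODD 2 column is full and the LACZ 1 column holds 13 genes, none with a peak in the first 10% of its list.

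Among the classical AGP genes, all 13 had an EVEN 1 peak, 12 of them in the gene body. ODD 1 had a peak at 10 of them and LACZ 1 at 4. Of the 12 AG peptide genes, ODD 1 had a peak at 6, EVEN 1 at 6 and LACZ 1 at 2, beside 48.9%, 55.3% and 41.3% of all genes, so in ODD 1 and EVEN 1 their share was near that of all genes. Their windows were 2427 to 3101 bp long, and those of the classical genes 2707 to 3745 bp. Of the 3 lysine-rich genes, ODD 1 had a peak at 2, EVEN 1 at 1 and LACZ 1 at 0. Both non-classical genes had peaks in all 4 lists, beside 16.0% of all genes and 10.9% of those with windows no longer than 3948 bp. Their windows, at 3793 and 3915 bp, were the longest of the AGP genes. The difference between these classes was not tested.

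AGP5, a classical AGP gene, was the one gene that kept its region at −log10 q of at least 5. Its ODD 1 peak (chr1:12917313-12917432) was enriched 6.81-fold, with a −log10 q of 9.09. The EVEN 1 peak (chr1:12917275-12917553) was enriched 4.46-fold and ODD 2 (chr1:12917155-12917564) 9.15-fold. All 3 lie inside the gene, the ODD 1 peak wholly within the EVEN 1 peak, and the control list had no peak in the window.

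AGP3, also classical, held 4 ODD 1 peaks, the most of the 52 genes. The one shared with EVEN 1 lay in the gene (chr4:18581190-18581335) and was enriched 6.69-fold. Over it stood a 9.03-fold ODD 2 peak (chr4:18581067-18581520) and a 4.21-fold EVEN 1 peak (chr4:18581067-18581365). The highest ODD 1 fold of the window, 10.5, lay outside AGP3 in the lncRNA gene AT4G09995 (chr4:18582196-18582466). It had a 6.89-fold ODD 2 peak over it (chr4:18582001-18582436) and no EVEN 1 or LACZ 1 peak.

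AGP2, another classical gene, had an APOLO-probe region and a control region side by side. Inside the gene, a 47 bp ODD 1 peak (chr2:9538567-9538613), enriched 4.26-fold, lay within a 4.46-fold EVEN 1 peak (chr2:9538329-9538691), and ODD 2 (chr2:9538406-9538728) was enriched 4.47-fold. Outside the gene, a further ODD 1 peak of 4.69-fold (chr2:9537426-9537483) lay within a 3.46-fold LACZ 1 peak (chr2:9537366-9537609). EVEN 1 had no peak at that place, and ODD 2 one of 3.40-fold.

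AGP22 was the 1 AG peptide gene of 12 with a region of both probe sets. ODD 1 was enriched 7.34-fold (chr5:21603931-21604141) and ODD 2 9.15-fold (chr5:21603902-21604167). The EVEN 1 peak inside them (chr5:21603977-21604032) was weak, at 2.97-fold, 81.0% down the EVEN 1 list from the highest fold. The control list had no peak in the window.

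AGP31, a non-classical gene, held 2 ODD 1 peaks that EVEN 1 shared, of 11.6-fold (chr1:9890214-9890342) and 7.59-fold (chr1:9890436-9890661). A single ODD 2 peak of 10.9-fold covered both (chr1:9890078-9890770). Over that stretch EVEN 1 had 3 short peaks of 3.94-fold, 3.41-fold and 2.63-fold, the weakest with a −log10 q of 1.41. Elsewhere in the gene a 2.63-fold LACZ 1 peak (chr1:9889317-9889654) coincided with a 3.15-fold EVEN 1 and a 2.26-fold ODD 2 peak. The gene thus holds one stretch shared by both APOLO probe sets alone and another shared with the control probes.

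At AGP27, an arabinogalactan protein gene whose own body held a peak in ODD 2 alone (2.56-fold), the region lay in NHX4. ODD 1 was enriched 10.1-fold there (chr3:1930629-1930865), ODD 2 11.5-fold (chr3:1930494-1930977) and EVEN 1 4.02-fold (chr3:1930670-1930852). At AGP6, a gene of pollen development and pollen tube growth, the region in AT5G14390 was a 47 bp ODD 1 peak of 4.12-fold (chr5:4637639-4637685). EVEN 1 was enriched 4.20-fold and ODD 2 4.71-fold at that place. Inside AGP6, EVEN 1 (chr5:4636252-4636427) reached 4.73-fold and ODD 2 3.31-fold, and ODD 1 had no peak.

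Of the ENODL genes, ENODL12 had the highest ODD 1 fold, 7.37 (chr4:14936455-14936571). It is one of a group, ENODL11 to ENODL15, known from pollen tube reception by the ovule. Over its ODD 1 peak, ODD 2 was enriched 7.09-fold (chr4:14936435-14936612) and EVEN 1 2.87-fold (chr4:14936459-14936543). Toward the other end of the gene EVEN 1 had peaks of 3.27-fold and 3.12-fold under a 3.87-fold ODD 2 peak, where ODD 1 had none. The control list had no peak in the window.

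ENODL11 had the highest ODD 2 fold of the ENODL genes, 11.1 (chr2:10206813-10207155), in the top 2.22% of that list. The ODD 1 peak inside it (chr2:10206913-10207065), at 4.73-fold, stood 56.8% down its own list. EVEN 1 (chr2:10206973-10207080) was enriched 3.41-fold and the control list had no peak. Both ODD libraries and EVEN 1 thus held a peak at this place.

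ENODL20 lies beside AGO4, a gene of RNA-directed DNA methylation. Inside ENODL20, ODD 1 (chr2:11536152-11536271) was enriched 6.14-fold, ODD 2 (chr2:11536095-11536359) 10.5-fold and EVEN 1 (chr2:11535936-11536264) 3.89-fold. In AGO4, within the ENODL20 window, a 3.91-fold ODD 1 and a 3.08-fold ODD 2 peak overlapped a 2.37-fold LACZ 1 peak (chr2:11536691-11536890). EVEN 1 had no peak at that place.

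In ENODL1, a 47 bp ODD 1 peak of 4.26-fold (chr5:21870383-21870429) lay within a 4.07-fold EVEN 1 peak that began at the same base (chr5:21870383-21870637) and a 5.43-fold ODD 2 peak (chr5:21870147-21870802). The ENODL7 region in TED3 was enriched 4.06-fold in ODD 1 (chr1:30019914-30020049), 7.06-fold in ODD 2 and 3.62-fold in EVEN 1. The ENODL10 region in APO2 was enriched 5.81-fold in ODD 1 (chr5:23455352-23455418), 6.73-fold in ODD 2 and 3.56-fold in EVEN 1. None of these 3 windows held a LACZ 1 peak.

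**Figure D3:**
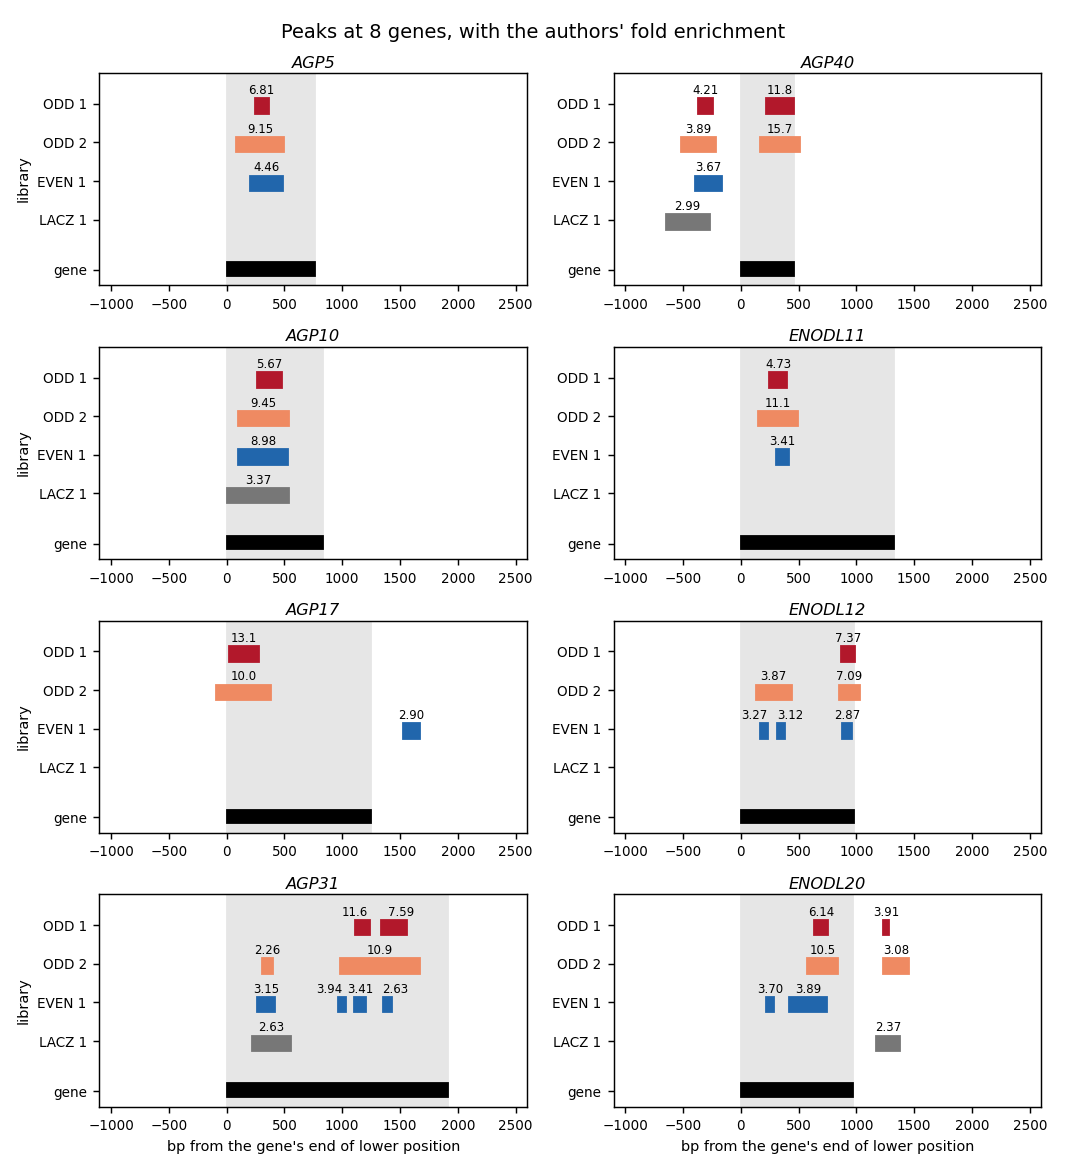
Peaks of each library (rows; coloured bars) at 8 genes, by distance in bp from the end of the gene with the lower chromosome position (x axis), with the gene as a black bar and the authors' fold above each peak. At AGP5 and ENODL11 the peaks of the APOLO probes coincide and LACZ 1 has none, at AGP10 all 4 libraries coincide, and at AGP17 and AGP40 the ODD peaks in the gene have no EVEN 1 peak over them.

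At 4 further AGP genes, AGP9, AGP10, AGP30 and AGP40, ODD 1 and EVEN 1 peaks coincided and a control peak lay there too. AGP10, a classical gene, had the highest EVEN 1 fold of the 52 genes, 8.98 (chr4:5792236-5792667), in the top 1.03% of that list. ODD 1 was enriched 5.67-fold there (chr4:5792399-5792615), ODD 2 9.45-fold (chr4:5792239-5792677) and LACZ 1 3.37-fold (chr4:5792139-5792679). A further coding gene, AT4G09035, overlaps AGP10 at these positions, so the peaks cannot be given to one of them.

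AGP9, also classical, came next by EVEN 1 fold, at 7.35 (chr2:6399712-6400138). ODD 1 was enriched 5.20-fold there (chr2:6399824-6399923), ODD 2 10.2-fold (chr2:6399674-6400157) and LACZ 1 3.87-fold (chr2:6399614-6399857). At AGP30, a non-classical gene of roots and seeds, ODD 1 was enriched 13.1-fold (chr2:14294869-14295290), ODD 2 9.93-fold (chr2:14294791-14295317), EVEN 1 3.98-fold (chr2:14294879-14295179) and LACZ 1 2.70-fold (chr2:14294740-14295216). At 422 bp this ODD 1 peak was the widest of the 43 at these genes.

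AGP40, an AG peptide gene of pollen, held separate places of each kind. Inside the gene, ODD 1 was enriched 11.8-fold (chr3:7308718-7308961) and ODD 2 15.7-fold (chr3:7308670-7309011), which ranked 23 of 58146. Neither EVEN 1 nor LACZ 1 had a peak over them. In the neighbouring kinase gene NEK5, ODD 1 (4.21-fold), ODD 2 (3.89-fold), EVEN 1 (3.67-fold) and LACZ 1 (2.99-fold, chr3:7307853-7308236) all had a peak.

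Strong ODD peaks with no EVEN 1 peak over them were found at further genes. AGP17, a lysine-rich gene needed for efficient Agrobacterium binding to roots, had a 13.1-fold ODD 1 peak (chr2:9844155-9844416), and the ODD 2 peak over it stood in the top 3.99% of its list (chr2:9844042-9844515). The EVEN 1 peak of AGP17, at 2.90-fold, lay 270 bp beyond the gene, in PUB4. AGP14, an AG peptide gene linked to root hair growth, was enriched 8.51-fold in ODD 1 (chr5:22893171-22893281) and 12.0-fold in ODD 2 (chr5:22893113-22893409), with no EVEN 1 or LACZ 1 peak in its window. AGP19, another lysine-rich gene, had a 6.25-fold ODD 1 and a 10.1-fold ODD 2 peak, where a further coding gene, AT1G68723, overlaps it. ENODL3 had a 6.04-fold ODD 1 (chr4:14032314-14032375) and an 8.31-fold ODD 2 peak (chr4:14032260-14032575) in its flank, and the ODD 2 peak touched a tRNA gene. In all, 3 AGP and 2 ENODL genes had peaks in both ODD libraries and in neither other list, 9.62% of the 52 genes, beside 11.0% of all genes and 10.8% of those with windows no longer than 3948 bp.

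EVEN 1 and ODD 2 peaks with no ODD 1 and no LACZ 1 peak were seen at 7 genes (13.5%, beside 12.4% of all genes and 13.7% of those with such windows). They were AGP1, AGP7, AGP16, AGP25, ENODL5, ENODL15 and ENODL18. The highest EVEN 1 folds among them were 5.25 at AGP7, 4.99 at ENODL15, 4.83 at ENODL5 and 4.73 at AGP25. A further 20 genes, 10 of each family, had peaks in the 3 lists of APOLO probes and none in LACZ 1, beside 15.2% of all genes and 12.7% of those with such windows. Peaks in all 4 lists were found at 7 AGP genes and 1 ENODL gene, beside 16.0% and 10.9%.

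Of the 51 EVEN 1 peaks in the windows, 42 overlapped an ODD 2 peak (82.4%, exact interval 69.1 to 91.6) and 18 an ODD 1 peak (35.3%, 22.4 to 49.9). Over all nuclear EVEN 1 peaks the shares were 59.5% and 19.1%. Of the 43 ODD 1 peaks in the windows, 39 overlapped an ODD 2 peak (90.7%, 77.9 to 97.4), 18 an EVEN 1 peak (41.9%, 27.0 to 57.9) and 7 a LACZ 1 peak (16.3%, 6.81 to 30.7). Over all nuclear ODD 1 peaks these shares were 94.8%, 24.0% and 13.4%. For both families together, overlap between ODD 1 and EVEN 1 was above the share of the whole lists from either side. The whole lists are not limited to peaks in gene windows, and the intervals count neighbouring peaks of a gene as separate. The intervals for ODD 1 overlap with ODD 2 and with LACZ 1 held the whole-list share. By family, 44.4% of AGP (25.5 to 64.7) and 25.0% of ENODL (9.77 to 46.7) EVEN 1 peaks overlapped an ODD 1 peak. Of ODD 1 peaks, 42.9% (24.5 to 62.8) and 40.0% (16.3 to 67.7) overlapped an EVEN 1 peak. Both ENODL intervals held the whole-list share. The 4 ODD 1 peaks missing from ODD 2 were at AGP15, AGP22, AGP26 and ENODL2, with folds of 3.78, 3.29, 3.77 and 4.97.

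AGP peaks had higher folds than ENODL peaks in these lists. The median fold of ODD 1 peaks was 6.04 at AGP genes and 4.97 at ENODL genes, beside 4.93 over the whole list. For ODD 2 it was 4.33 and 3.86, beside 3.44, for EVEN 1 3.85 and 3.56, beside 3.41, and for LACZ 1 3.07 and 2.69, beside 2.93. AGP genes held 6 of 28 ODD 1, 16 of 57 ODD 2, 6 of 27 EVEN 1 and 0 of 10 LACZ 1 peaks in the first 10% of the list by fold. ENODL genes held 0 of 15, 3 of 46, 2 of 24 and 0 of 5 in the same order of libraries. The median local background at the peaks of both families was 1.41 fragments in ODD 1, 8.21 in ODD 2, 3.42 in EVEN 1 and 6.72 in LACZ 1, beside 1.38, 7.75, 3.17 and 7.14 over the whole lists. The difference between the families was not tested.

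Most genes with an EVEN 1 peak had it in the gene body. A peak touched the body of 25 of the 52 genes in ODD 1 (48.1%, beside 34.4% of all genes and 23.6% of genes with windows no longer than 3948 bp), and of 47 in ODD 2 (90.4%, beside 80.2% and 68.0%). In EVEN 1 it was 34 genes (65.4%, beside 41.6% and 33.5%), and in LACZ 1 6 genes (11.5%, beside 29.4% and 21.1%). Of the EVEN 1 summits inside the windows, 22 of 25 at AGP genes (88.0%) and 20 of 24 at ENODL genes (83.3%) lay in the gene body, which made up 32.2% and 35.2% of the window length. For ODD 1 this was 16 of 27 and 9 of 15, for ODD 2 32 of 54 and 26 of 44, and for LACZ 1 4 of 10 and 1 of 4. Among genes with windows no longer than 3948 bp, with 37.5% of the length in gene bodies, it was 52.8% for ODD 1, 53.9% for ODD 2, 63.4% for EVEN 1 and 58.4% for LACZ 1.

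Within AGP genes, EVEN 1 summits gathered at the middle. Of the 25 EVEN 1 summits in AGP windows, 16 lay within 200 bp of the gene centre (64.0%), and 7 of 24 did in ENODL windows (29.2%). For ODD 1 it was 11 of 27 at AGP genes (40.7%) and 2 of 15 at ENODL genes (13.3%), for ODD 2 19 of 54 (35.2%) and 10 of 44 (22.7%), and for LACZ 1 1 of 10 and 1 of 4. Such positions make up 13.6% of AGP and 13.0% of ENODL window length. In genes with windows no longer than 3948 bp they held 17.5% of ODD 1, 19.5% of ODD 2, 24.8% of EVEN 1 and 22.4% of LACZ 1 summits. The distance of 200 bp was chosen after the positions had been seen.

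**Figure D4:**
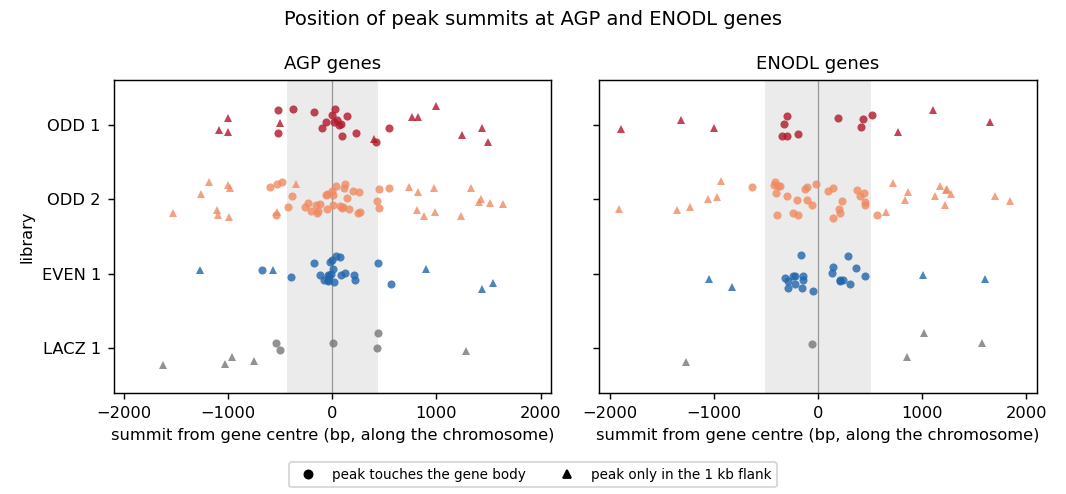
Distance of each peak summit from the centre of its gene in bp along the chromosome (x axis), by library (y axis), for AGP genes left and ENODL genes right; grey marks the median gene length, circles are peaks that touch the gene body and triangles peaks in the 1 kb flank alone. EVEN 1 summits of AGP genes gather at the centre, 16 of 25 within 200 bp, and LACZ 1 has 10 AGP and 5 ENODL peaks.

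The control peaks numbered 15 at 13 genes, with folds of 2.33 to 3.96. The 6 genes with one in the gene body were AGP9, AGP10, AGP26, AGP30, AGP31 and ENODL4. In ENODL4 a 2.68-fold LACZ 1 peak (chr4:15678893-15679175) coincided with a 4.43-fold ODD 2 and a 3.86-fold EVEN 1 peak, and ODD 1 had none in the window. At AGP26, a classical gene, a 2.33-fold LACZ 1 peak (chr2:19617638-19617838) covered a 5.92-fold ODD 1 peak 17 bp outside the gene, and a 3.07-fold one (chr2:19616276-19616505) lay in NET3C. A further coding gene, AT2G47935, overlaps the 2.33-fold LACZ 1 peak and that ODD 1 peak. AGP12 (3.07-fold, chr3:4410471-4410677), ENODL9 (3.44-fold, chr3:7188249-7188957), ENODL21 (2.90-fold, chr5:4627392-4627605) and ENODL22 (2.69-fold, chr1:6127721-6127964) had a LACZ 1 peak in the flank alone.

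The remaining genes held no ODD 1 peak on an EVEN 1 peak. AGP18, a gene of megaspore development, AGP20, AGP21, a gene of root hair cell fate, AGP23, AGP24, ENODL13 and ENODL17 had peaks in ODD 2 and in no other list (7 genes, 13.5%, beside 14.3% of all genes and 18.1% of those with windows no longer than 3948 bp). Their highest ODD 2 folds ran from 2.78 at AGP18 and AGP20 to 5.42 at AGP21. At AGP41 the only peaks, 6.15-fold in ODD 1 and 4.90-fold in ODD 2, lay in the neighbouring gene WRKY30. ENODL6 had peaks in both ODD lists alone, the ODD 1 peak at 4.15-fold. AGP4, AGP11, AGP13, AGP15, ENODL2, ENODL8, ENODL14, ENODL16 and ENODL19 had ODD 1 and EVEN 1 peaks that did not touch each other, with highest ODD 1 folds of 3.78 to 6.64. ODD 2 folds at some of these were high, at 10.1 for AGP13 (in the top 3.79% of that list), 8.50 for AGP4, 8.24 for AGP11 and 7.42 for ENODL16. That AGP4 peak also overlapped a further coding gene, AT5G10435, and the AGP11 peak lay outside AGP11, in AT3G01710.

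Fasciclin-like arabinogalactan proteins (FLA) carry cell adhesion domains beside the same glycosylated stretches. Of 20 FLA genes, ODD 1 had a peak at 13, ODD 2 at 20, EVEN 1 at 13 and LACZ 1 at 9, beside 48.9%, 92.8%, 55.3% and 41.3% of all genes. A region of both probe sets without the control lay at 4 of them, beside 11.1% of all genes, namely FLA13 (ODD 1 10.4-fold), FLA7 (9.46-fold), FLA5 (5.61-fold) and FLA3. Of these, FLA13 had no LACZ 1 peak anywhere in its window and the other 3 had 1 each. The difference between the FLA genes and the 52 genes was not tested.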

How the data were processed

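The authors deposited 1 peak list per library on TAIR10. The submitters' processing notes name CASAVA 1.8.2, Trimmomatic, Bowtie2 and MACS2, and how MACS2 was run, with or without a control, is not stated. Per the file headers, a deposited peak has a pileup signal, a fold enrichment ratio, and a p-value and q-value as −log10. Gene counts and overlaps were computed from the lists with Python 3.11.15, numpy 2.4.6, pandas 2.3.3 and scipy 1.17.1, and the overlap step was tested on simulated data.

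Peaks of the 5 nuclear chromosomes were used. Genes and symbols came from the RefSeq table of TAIR10.1, whose coordinates are not printed and which gives no strand. Its fit to the lists was checked by moving ODD 2 summits in 50 bp steps to 3000 bp at most: their share in coding genes was highest (73.4%) at 0 bp and lowest at 55.3%. The local background was worked back from pileup and fold by the MACS2 formula, which adds 1 to both terms. The members and gene lists were chosen with earlier results of these data known, and AGP classes, from general knowledge, were added later.

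Genes given with positions have an ODD 1 peak on an EVEN 1 peak, a LACZ 1 peak, or 1 of the 3 highest ODD 2 folds of their family; AGP17, AGP19 and genes given with folds alone were added after their values had been seen. Of the listed names, 5 of 15 glycosyltransferases and 5 of 8 other phytocyanins matched; SCC2 and SCC3 name cohesin genes in the table and were left out. No test over samples was run, and planned protein and promoter descriptions were not made.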

Additional observations from a re-analysis of the deposited data

How the results depend on the processing

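No paired analysis was possible because the groups share only the replicate number 1. Of 82 alternatives to 12 counts, 65 stayed within 1.5 times the count reported and 17 did not. With −log10 q of at least 5, the genes with a peak in ODD 1 fell to 7 ENODL genes (beside 28.8% of all genes). Those in EVEN 1 fell to 8 AGP and 3 ENODL genes (beside 12.0%), and those in LACZ 1 to 5 AGP and 1 ENODL gene (beside 16.7%). The ENODL shares in ODD 1 and EVEN 1 and the AGP share in LACZ 1, 5 of 30, thus came near those of all genes. The AGP shares in the other lists of this kind stayed above them, at 17 of 30 in ODD 1 (beside 28.8%) and 8 of 30 in EVEN 1 (beside 12.0%). Regions of both probe sets without the control fell to 1 AGP and 0 ENODL genes (beside 2.98%). Lists cut by fold to the length of the shortest (12546 peaks) left 17 AGP and 10 ENODL genes with a peak in ODD 2, beside 45.6% of all genes. They left 13 ENODL genes with a peak in either ODD library, beside 53.0%. LACZ 1 counts followed the window: 5 AGP and 1 ENODL gene with the gene body alone (beside 29.4% of all genes), and 15 AGP and 8 ENODL genes with 2 kb either side (beside 53.2%). With 2 kb the AGP share, 15 of 30, also came near that of all genes. With ODD 2 in place of ODD 1 the genes with a region of both probe sets numbered 15 and 14, beside 31.9% of all genes. The genes with a peak in either ODD library ranged from 20 to 30 (AGP) and 13 to 22 (ENODL) on leaving out 1 ODD library. The lower values were without ODD 2 (beside 48.9% of all genes) and the higher without ODD 1 (beside 92.8%). The cause was not tested beyond the fewer peaks or shorter window that each setting leaves. The peak lists hold no value below their threshold, so a gene without a peak at these unequal depths is not shown to lack recovery.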

Other observations

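Phytocyanins other than the early nodulin-like proteins formed a short list. Of 5 genes, 2 had a peak in ODD 1, 5 in ODD 2, 5 in EVEN 1 and 1 in LACZ 1, beside 48.9%, 92.8%, 55.3% and 41.3% of all genes. UCC2, a uclacyanin gene, held the 1 region of both probe sets among them (chr2:18462112-18462358), enriched 12.2-fold in ODD 1, with an EVEN 1 peak of 5.41-fold and no LACZ 1 peak in the window. The single control peak was at ARPN, the plantacyanin gene, with a fold of 3.41.

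The genes searched for enzymes that build the sugar chains were 3 prolyl 4-hydroxylase and 5 glycosyltransferase genes, and 10 more listed names matched no gene and were not searched. A region of both probe sets lay at 0 of them, beside 11.1% of all genes, and so few genes allow no comparison. Prolyl 4-hydroxylases make the hydroxyproline on which the chains start, and of 3 genes 2 had a peak in ODD 1 (P4H2, fold 6.60, and P4H5, 3.78), 3 in ODD 2, 1 in EVEN 1 and 1 in LACZ 1. Of 5 glycosyltransferase genes, 3 had a peak in ODD 1, 5 in ODD 2, 3 in EVEN 1 and 3 in LACZ 1. Over all genes the shares with a peak in these lists were 48.9%, 92.8%, 55.3% and 41.3%, in the same order. At FUT4, a fucosyltransferase gene of the arabinogalactan side chains, the highest folds were 8.18 in ODD 1, 8.17 in ODD 2 and 5.87 in LACZ 1. Both xylogen genes, XYP1 and XYP2, had a peak in ODD 2, in EVEN 1 and in LACZ 1 and none in ODD 1.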
